A study of Mus musculus with 2 samples.

Results

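Oxidative phosphorylation is carried out by 5 protein assemblies of the mitochondrial inner membrane. Complexes I and II pass electrons from NADH and succinate to ubiquinone, complex III passes them on to cytochrome c, complex IV gives them to oxygen, and complex V, the ATP synthase, uses the resulting proton gradient to make ATP. Most of their subunits are encoded in the nucleus and imported, and a smaller set is encoded in mitochondrial DNA and made inside the organelle. Resting T cells are known to depend largely on oxidative phosphorylation, and T cells that enter division enlarge their mitochondria while also increasing glycolysis.

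The nuclear subunit genes were read in single-cell RNA profiles of splenic CD8+ T cells from wild-type C57BL/6 mice. CTRL mice received 20 µL of sesame oil under the skin every day for 21 days, and DHEA mice received 40 mg/kg of dehydroepiandrosterone in the same oil on the same schedule. DHEA is an androgen precursor that is given to mice as a model of polycystic ovary syndrome (PCOS). CD8+ cells were isolated with magnetic beads and run on the 10x Genomics 3′ platform as 1 library per group; the cells are described as pooled, with neither the number of animals nor their age given in the sources used here. With 1 library per group there is no test of the treatment, cells are not replicates, and a difference between animals or library preparations cannot be told apart from one caused by DHEA. All intervals are exact, at the 95% level, and account for counting error alone.

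Members were the genes of both libraries whose symbols begin with Ndufa, Ndufb, Ndufc, Ndufs, Ndufv, Sdha to Sdhd, Uqcr, Cox4 to Cox8 or Atp5, without assembly factors and without 1 core subunit gene of complex I, which is not analysed here. This gave 88 genes of 33696: 38 for complex I, 4 for complex II, 8 for complex III, 21 for complex IV and 17 for complex V. Of these, 79 reached 200 unique molecular identifiers (UMIs, counted transcripts) over both libraries and are called measured. Cells had at least 200 genes, under 10% mitochondrial UMIs and at least 1 UMI each of a CD8 and a CD3 gene, which kept 8717 of 9495 CTRL barcodes with 49239407 UMIs and 10699 of 12128 DHEA barcodes with 50077687 UMIs. Median depth was 5615 UMIs per CTRL cell and 4483 per DHEA cell, and 40 barcodes of these cells occurred in both libraries. In the kept cells Cd8b1 stood at 1017 and 1266 UMIs per 1000000 (CPM) in CTRL and DHEA. The filter itself required a CD8 UMI, so this level does not check the label. Cd4, which the filter did not use, had 3 and 4 UMIs. A list of other cell types held 17 markers, of B, myeloid, NK, erythroid, platelet, helper T and gamma-delta T cells. Of these, 3 were at 0 in CTRL and 2 in DHEA, and the summed level was 40.2 and 49.8 CPM. The B cell gene Cd79b gave 879 and 960 UMIs and the gamma-delta gene Trdc 439 and 491. The erythroid gene Car1 gave 358 and 253, and the NK gene Klrb1c 174 and 180. S100a8 and S100a9, neutrophil genes, had 1 UMI each in CTRL and 205 and 258 in DHEA. Of the DHEA UMIs, 202 and 254 came from 2 cells each, outside the named states. Without cells holding at least 2 UMIs of the list, the log2 ratio of the subunit sum in DHEA over CTRL was 0.093, beside 0.092 with them.

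Nuclear subunit transcripts made up 1.348% of all UMIs in CTRL (interval 1.344 to 1.351) and 1.436% in DHEA (1.433 to 1.44). Complex V took 31.6% of these UMIs in CTRL, complex I 28.5%, complex IV 27.7%, complex III 9.98% and complex II 2.17%, and the shares in DHEA were 31.3%, 28.7%, 27.8%, 10.05% and 2.07%. Because the 3′ chemistry tags a transcript near its end, a CPM counts transcripts and was not divided by gene length. Levels within a complex were far from equal. In complex I the measured genes ran from Ndufb4 at 35.6 CPM to Ndufa13 at 215 CPM in CTRL, apart from Ndufb4b, a gene resembling Ndufb4, at 3.19 CPM, whose reads may be shared with it. Complex III held 7 genes between 94.7 and 146 CPM and Uqcrh, the acidic hinge protein that helps cytochrome c dock, at 505 CPM. In complex IV the 3 most abundant genes were Cox7a2l at 574, Cox4i1 at 464 and Cox7c at 435 CPM, and in complex V they were Atp5e at 491, Atp5g2 at 444 and Atp5b at 343 CPM. Complex II was the least abundant, with Sdhd at 50.4 and Sdhb at 103 CPM as its lowest and highest.

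Where a subunit has isoforms for particular tissues, CD8 cells carried the widely expressed one. Cox4i1 had 22848 UMIs in CTRL and 23690 in DHEA, whereas Cox4i2, the lung isoform, had 0 and 1. Cox6a1 had 11088 and 11060 UMIs against 12 and 15 for Cox6a2, the heart and muscle isoform. Cox7a2 had 8033 and 8556 against 11 and 15 for Cox7a1, another muscle isoform, and Cox6b1 had 10947 and 12534 against 33 and 58 for Cox6b2, the testis isoform. No UMI of Cox7b2, Cox8b, Cox8c, Ndufa4l2 or Ndufb11b was found in either library; a count of 0 allows up to 3 UMIs among the 49239407 of CTRL, for counting error only. These 9 genes are the members that were not measured.

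The c ring of the ATP synthase, the rotor through which protons pass, is built from copies of 1 small protein that 3 genes encode. Their coding ends are shown to mark where the 3 genes differ. Whether reads were assigned to the wrong gene was not tested. The lines give the last 90 coding bases, stop codon included, from GENCODE M21 transcripts, 5′ to 3′, with capitals at the 24 positions where the 3 genes are not all alike.
Atp5g1: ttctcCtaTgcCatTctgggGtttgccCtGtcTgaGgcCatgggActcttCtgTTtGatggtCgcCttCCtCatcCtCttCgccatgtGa
Atp5g2: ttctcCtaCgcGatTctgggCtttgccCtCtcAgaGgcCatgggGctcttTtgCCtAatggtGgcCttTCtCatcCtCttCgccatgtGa
Atp5g3: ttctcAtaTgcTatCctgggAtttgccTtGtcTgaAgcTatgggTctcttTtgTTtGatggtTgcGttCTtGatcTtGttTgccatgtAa
Over the last 76 codons the 3 genes differed at 58 positions, 52 of them the third base of a codon; Atp5g1 and Atp5g2 were identical at 85.1% of positions, Atp5g1 and Atp5g3 at 79.8%, and Atp5g2 and Atp5g3 at 78.5%. Atp5g2 was the most abundant at 444 CPM in CTRL and 498 in DHEA. Atp5g1 stood at 168 and 189 CPM and Atp5g3 at 159.5 and 167 CPM. The log2 ratio of DHEA over CTRL was 0.17 (0.14 to 0.19) for Atp5g2, 0.17 (0.13 to 0.21) for Atp5g1 and 0.06 (0.02 to 0.11) for Atp5g3, so the Atp5g3 interval lay below those of the other genes.

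Between the libraries, nuclear subunit transcripts were slightly more frequent in DHEA, by 0.09 on the log2 scale (0.087 to 0.097). The size was close for complex I (0.10), complex III (0.10), complex IV (0.10) and complex V (0.08), while the complex II ratio was 0.03 with an interval that included 0 (-0.01 to 0.06). Of the 79 measured members, 65 were higher in DHEA, 82.3% against 49.5% of the 10515 genes measured in all, and their median log2 ratio was 0.09 against -0.002 for all genes. Few differed by much. A ratio of at least 1.2-fold higher was seen in 5 of 79 members, beside 10.2% of all genes, and 0 of 79 were at least 1.2-fold lower, beside 10.7%. All genes were not matched to the members by UMI count, and a gene with few UMIs passes 1.2-fold more readily by counting error alone. These shares past a fold are therefore not a like comparison, and the same holds for those given by state below. What the members showed was a small shift that most of them shared.

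**Figure D1:**
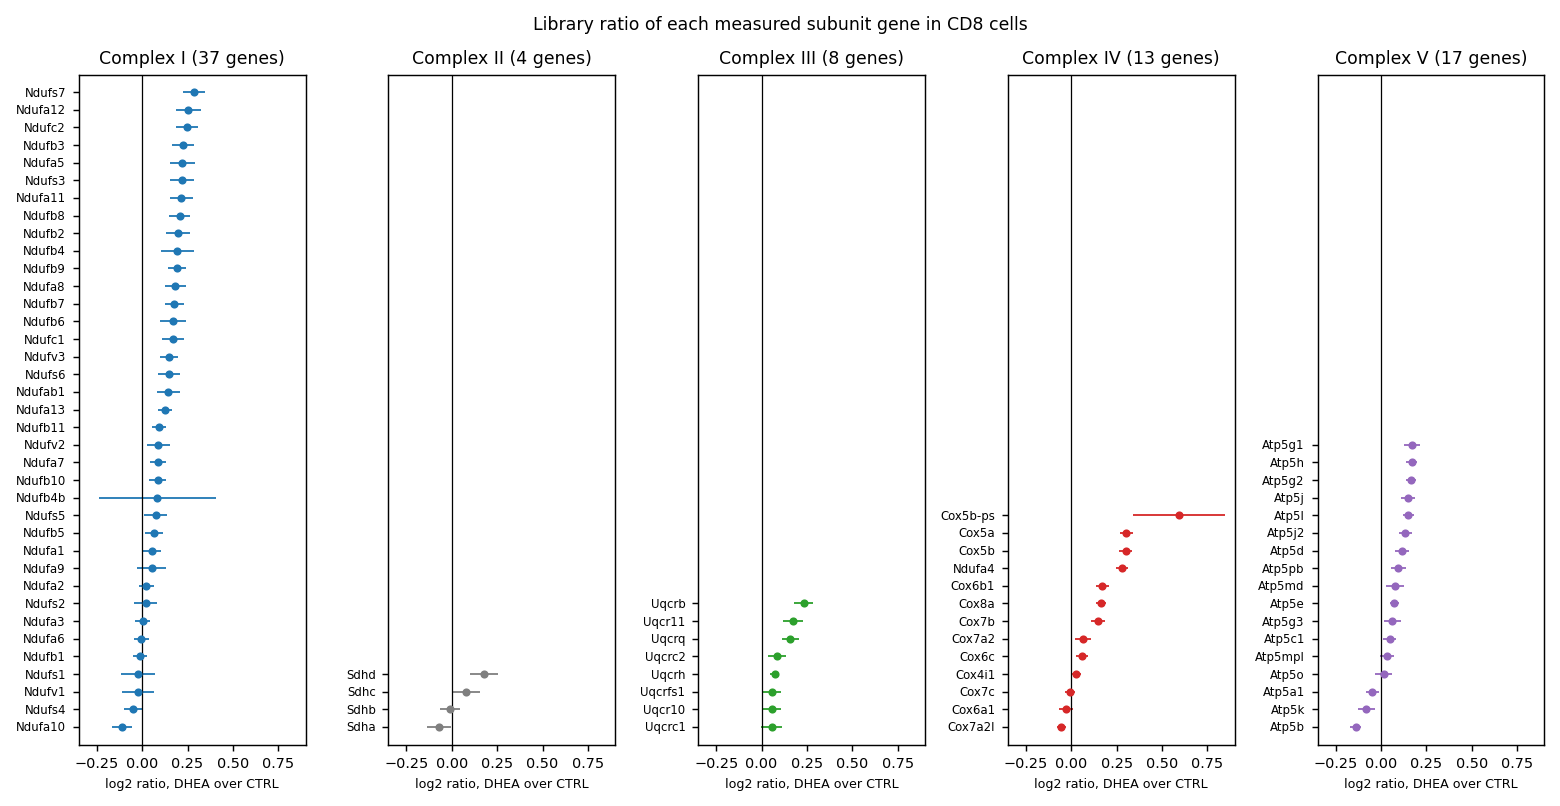
Each point is the log2 ratio of CPM in DHEA over CTRL for 1 measured subunit gene, with its exact 95% counting interval, in 1 panel per complex and sorted by value; the vertical line marks no difference. Most points lie a little to the right of the line in every complex except complex II, where 2 of 4 do, and Cox5b-ps, a pseudogene with few UMIs, has the widest interval of complex IV.

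In complex I, Ndufs7, a core subunit carrying the iron-sulfur cluster next to ubiquinone, had the highest ratio at 0.29 (0.22 to 0.35), from 76.4 to 93.1 CPM. Ndufa12, an accessory subunit, followed at 0.25, from 64.4 to 76.8 CPM. At the other end Ndufa10 was lower in DHEA at -0.11 (-0.17 to -0.05), and Ndufs4, an accessory subunit whose loss in mice causes a Leigh-like brain disease, stood at -0.05 with an interval that included 0. Ndufa13, the most abundant, went from 215 to 234.5 CPM. Core subunits together had a ratio of 0.12 and accessory subunits 0.10, so the difference was not confined to either.

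Complex II split by position. Sdha, the flavoprotein that oxidises succinate, stood at 80.9 and 77.02 CPM in CTRL and DHEA (-0.07, -0.13 to -0.01), and Sdhb, the iron-sulfur subunit, at 103 and 102 CPM (-0.01). The membrane anchors Sdhc and Sdhd were both higher in DHEA, at 0.08 (0.01 to 0.15) and 0.18 (0.10 to 0.26). In complex III, 8 of 8 member genes had ratios above 0: Uqcrb was highest at 0.23, Uqcr11 followed at 0.17, Uqcr10 and Uqcrc1 were lowest at 0.06 each, and Uqcrh stood at 0.07.

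Complex IV held 4 of the 5 members that were at least 1.2-fold higher. Cox5a went from 224 to 276 CPM (0.30, 0.27 to 0.34) and Cox5b from 212 to 261 CPM (0.30, 0.26 to 0.34); both are nuclear subunits that bind the catalytic core. Ndufa4, named for complex I but known as a subunit of complex IV, went from 283.5 to 344 CPM (0.28, 0.25 to 0.31). The fourth, Cox5b-ps, is a processed copy of Cox5b with 212 and 325 UMIs; its reads may belong to Cox5b, so its ratio of 0.59 is uncertain. Cox4i1 (0.03), Cox7c (-0.01) and Cox6a1 (-0.03), other subunits of the same enzyme, barely differed. Cox7a2l, which joins complexes III and IV into supercomplexes and of which C57BL/6 mice are known to carry a shortened form, was the lowest of the complex at -0.06 (-0.08 to -0.03), with 574 and 553 CPM.

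In complex V the ratio differed by part of the enzyme. F1, the catalytic head, had a summed ratio of 0.01 with an interval that included 0, beside 0.15 for the c ring, 0.12 for the peripheral stalk that holds the head still, and 0.08 for the remaining membrane subunits. Atp5b, the catalytic beta subunit, had the lowest ratio of all 79 members at -0.14 (-0.17 to -0.11), from 343 to 311 CPM. Its partner Atp5a1, the alpha subunit, stood at -0.05 (-0.08 to -0.01). Other F1 genes were higher in DHEA, Atp5d at 0.12 and Atp5e at 0.07. Atp5h of the peripheral stalk had 341 and 383 CPM (0.17), and Atp5k, a small membrane subunit, 149.5 and 141 CPM (-0.08, -0.13 to -0.03).

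Genes that surround these subunits gave a mixed picture. The 13 respiratory genes of mitochondrial DNA went the other way: they made up 2.57% of UMIs in CTRL and 2.13% in DHEA (-0.27), and 13 of 13 were lower, so that nuclear and mitochondrial subunits of the same complexes had opposite signs. Cycs, cytochrome c, had a ratio of 0.28. Cyc1, cytochrome c1, had 0.15. It is a complex III subunit that the symbol rule left out of the members and of the complex III sums. Of 46 measured assembly factors, 11 were at least 1.2-fold higher and 2 lower, beside 10.2% and 10.7% of all genes; Surf1 (0.41) and Taco1 (0.54), both needed to build complex IV, were among the higher ones, and the 2 lower ones, Atpaf1 (-0.29) and Atpaf2 (-0.30), are the chaperones of F1. Among 11 measured regulators of mitochondrial biogenesis, 0 passed 1.2-fold in either direction. Nrf1, a factor that drives many subunit genes, stood at 77.9 and 70.2 CPM (-0.15), and Ppargc1b, a coactivator, at 28.1 and 24.8 CPM (-0.18). Ppargc1a had 16 and 11 UMIs and was not measured.

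The promoters of 66 measured members were found by symbol in the RefSeq table of 300-base windows (build GRCm38.p6, 250 bases before to 50 after the start). On either strand, the word of the factor NRF1, spelled in capitals in the lines that follow, was in 5 of them, 7.58%, beside 2.69% of measured genes and 1.07% of all genes, and the YY1 word AAGATGGCG was in 7, 10.6% beside 4.33% and 1.64%. This word was shortened after a first count was seen: with 1 more letter, G, at its end it was in 5, 7.58% beside 2.90% and 0.995%. The ERR word TCAAGGTCA was in 2 members, Atp5g3 and Sdhd (3.03% beside 0.319% and 0.466%). The ETS word CCGGAAG was in 24.2% of members and 23.5% of measured genes, CCAAT in 39.4% and 43.4%, and TATAAA in 9.09% and 8.21%. These shares are descriptions of exact words, and no binding was measured. The 4 members with the NRF1 word before the start are shown because they sat on both sides in the library comparison; capitals mark the word, and each line gives 30 bases, 5′ to 3′ on the gene's strand.
Atp5g2, chr15:102671070-102671099, minus strand: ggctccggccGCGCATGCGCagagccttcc
Atp5k, chr5:108434430-108434459, minus strand: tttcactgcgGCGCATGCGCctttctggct
Cox6a1, chr5:115349101-115349130, minus strand: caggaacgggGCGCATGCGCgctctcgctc
Ndufa11, chr17:56717692-56717721, plus strand: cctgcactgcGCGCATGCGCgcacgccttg
The word began 42, 50, 162 and 60 bases before the start in these genes, in that order. Their library ratios were 0.17, -0.08, -0.03 and 0.22, 2 higher and 2 lower. Uqcrc1, the fifth, holds the word after its start and had a ratio of 0.06. Each window's first 30 bases after the start were looked for in GENCODE M21 transcripts of the same gene. They were not found for Ndufa11, so its distance is uncertain, nor for Sdhd, named for the ERR word.

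Several measures of the libraries moved with the shift. Over all genes, the ratio of DHEA over CTRL went down with the length of the gene in the genome: with genes in 10 equal groups by span, the median log2 ratio was 0.11 in the shortest group (median 2628 bp) and -0.17 in the longest (median 163931 bp). Subunit genes are short, with a median span of 7565 bp against 23400 bp for all genes measured, and 58 of the 78 with a known span lay in the 3 shortest groups. The median log2 ratios of all genes in these groups were 0.105, 0.11 and 0.082, beside 0.089 for the members. With the median of its span group subtracted, the members' median was 0.05, 48 of 78 were above 0, and 1 was at least 1.2-fold higher. The share of all genes 1.2-fold higher after this step was not counted. The mix of cells also differed, as described next.

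Cells were sorted into states by UMIs of marker genes after each cell was thinned to 1000 UMIs, and no subunit gene entered these gates. Cycling cells had at least 3 UMIs of proliferation genes such as Mki67 and Top2a; granzyme cells had at least 2 of Gzma, Gzmb, Gzmk and Klrg1; memory-phenotype cells had at least 2 of a list with Ccl5, Cxcr3 and Il2rb; naive-phenotype cells had none of the memory or granzyme lists and at least 1 of a list with Ccr7, Lef1 and Tcf7. Interferon and early-activated cells were gated in the same way. A gate is a range of a score, not a cell type: 4 of 25 CTRL and 10 of 48 DHEA cycling cells sat exactly at the threshold, and 8 and 36 cells lay 1 UMI below it. Naive-phenotype cells were 57.9% of CTRL and 42.2% of DHEA cells, and memory-phenotype cells 14.96% and 29.0%.

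Within naive-phenotype cells (5044 and 4519), the share of subunit transcripts was 1.336% in CTRL and 1.382% in DHEA, a log2 ratio of 0.05 (0.042 to 0.056). It was 0.07 (0.05 to 0.08) in complex I, 0.05 in complexes III and IV, 0.04 (0.02 to 0.05) in complex V and -0.005 in complex II. Of 78 members measured there, 55 were higher in DHEA, 70.5% beside 49.3% of all genes; 1 was at least 1.2-fold higher, the pseudogene Cox5b-ps, beside 8.2%, and 0 lower, beside 7.74%. In memory-phenotype cells (1304 and 3098) the share was 1.339% and 1.454%, a ratio of 0.12 (0.109 to 0.130). There 69 of 77 members were higher, 89.6% beside 47.7%, and 6 were at least 1.2-fold higher, 7.79% beside 9.87% of all genes: Cox5b, Sdhd, Ndufb8, Cox5a, Ndufc2 and Uqcrq, at 0.27 to 0.34. None was lower by that size, beside 13.8%. Complex III had the highest ratio in memory-phenotype cells at 0.17, and complex II the lowest at 0.07. Whether the ratio differs between the states was not tested. Cox5a went from 216 to 254 CPM in naive-phenotype and from 236 to 285 CPM in memory-phenotype cells, and Cox5b from 209 to 242 and from 208 to 263 CPM, so this pair of complex IV subunits was higher in DHEA in both states. Atp5b was lower in both, from 348 to 309 CPM and from 319 to 303 CPM.

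Depth moved with the level too. In naive-phenotype CTRL cells the subunit share went from 1.13% at 1000 to 2000 UMIs per cell through 1.25%, 1.32% and 1.36% to 1.49% at 10000 UMIs and over. In DHEA the same bins gave 1.35%, 1.30%, 1.36%, 1.43% and 1.55%. DHEA was higher in 5 of 5 bins, by the most in the shallowest, which held 143 CTRL and 780 DHEA cells. The mitochondrially encoded genes ran opposite, from 3.85% to 2.32% in CTRL and from 2.54% to 1.92% in DHEA.

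**Figure D2:**
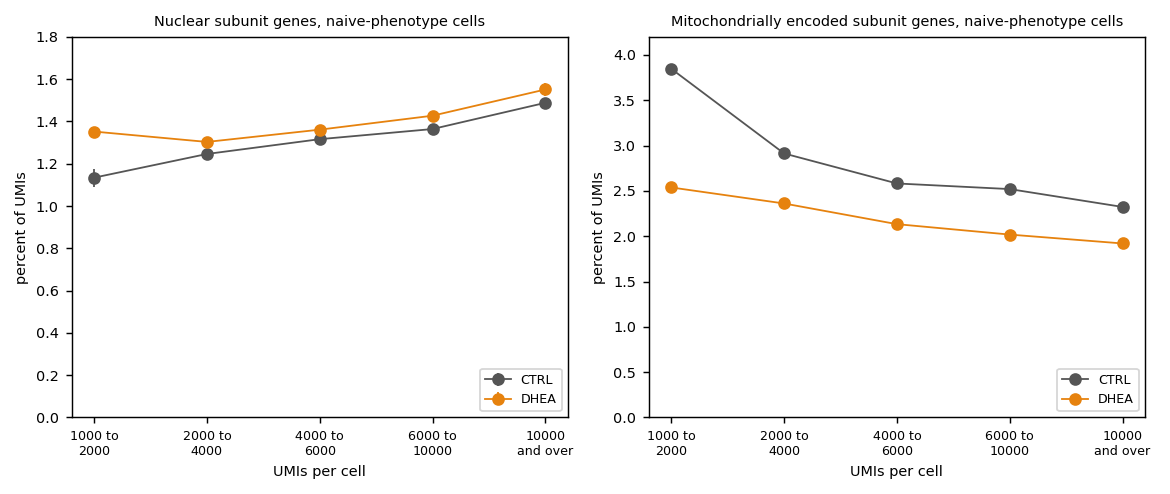
Percent of UMIs from the nuclear subunit genes (left) and from the 13 mitochondrially encoded subunit genes (right) in naive-phenotype cells, by UMIs per cell, for each library; bars on the left are exact 95% counting intervals, mostly smaller than the points. The DHEA line lies above the CTRL line on the left and below it on the right in 5 of 5 bins.

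Cycling cells carried the highest share of subunit transcripts. It was 2.29% in 25 CTRL cells and 2.54% in 48 DHEA cells, 1.72 times and 1.84 times the naive-phenotype share of the same library, or 0.78 (0.75 to 0.81) and 0.88 (0.85 to 0.90) on the log2 scale. After thinning to 1000 UMIs, the median cell had 21 subunit UMIs in CTRL and 23 in DHEA cycling cells, against 13 in naive-phenotype cells of either library. The 10th percentile of CTRL cycling cells was 9.8, inside the naive-phenotype range, whose 90th percentile was 18.7. Complexes differed: cycling over naive-phenotype was 0.72 for complex I, 0.65 for II, 0.59 for III, 0.84 for IV and 0.84 for V in CTRL, and 0.82, 0.89, 0.69, 0.97 and 0.90 in DHEA. Complex III was lowest in both libraries. Complex IV was highest, but in CTRL it was level with complex V at the precision given. Complex II in CTRL cycling cells had a wide interval, 397 to 533 CPM around 461 CPM, so its place in the order is not settled. The mitochondrially encoded genes did not share the increase, at -0.26 and -0.02, so that the number of nuclear subunit UMIs per mitochondrially encoded UMI was 0.51 and 0.64 in naive-phenotype and 1.06 and 1.195 in cycling cells of CTRL and DHEA.

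**Figure D3:**
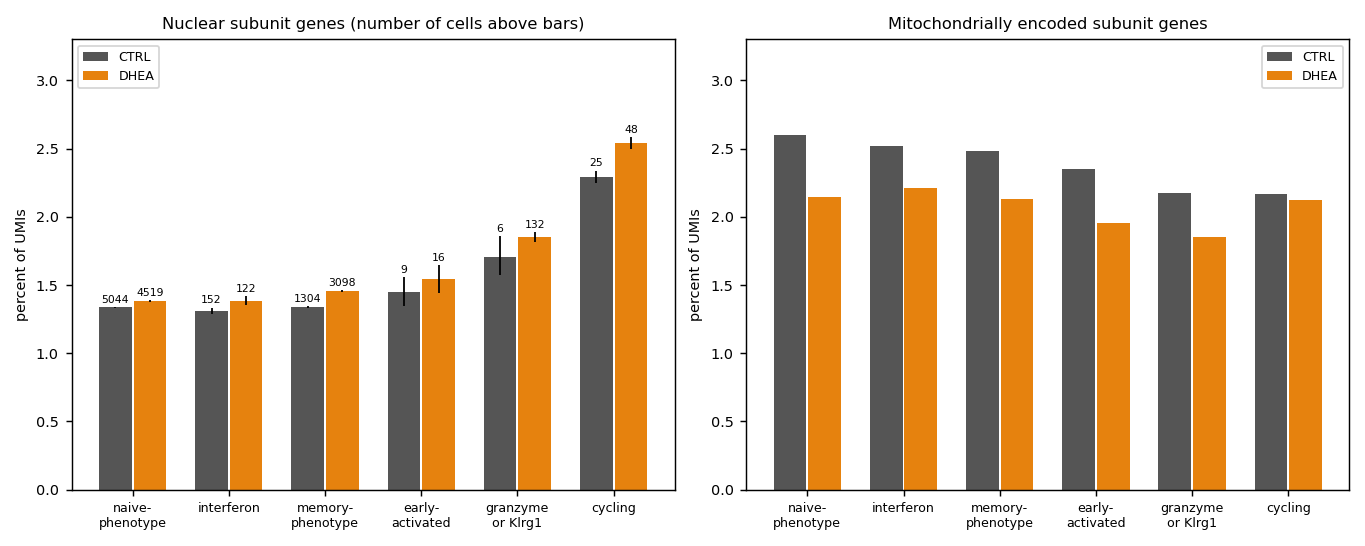
Percent of UMIs from nuclear (left) and mitochondrially encoded (right) subunit genes in each cell state and library; bars start at 0, error bars on the left are exact 95% counting intervals, and the numbers are cells. Nuclear subunit transcripts reach 2.29% and 2.54% in cycling cells against 1.34% and 1.38% in naive-phenotype cells, while the mitochondrially encoded bars are no higher in cycling cells.

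**Figure D4:**
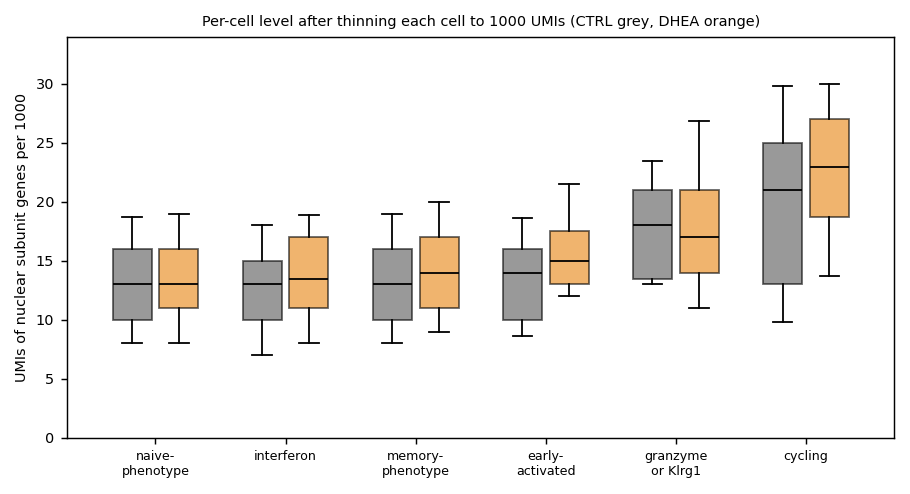
UMIs of nuclear subunit genes per cell after thinning each cell to 1000 UMIs, by state and library (CTRL grey, DHEA orange); boxes span the quartiles, the line is the median and whiskers run from the 10th to the 90th percentile of cells. Medians are 13 in naive-phenotype cells of both libraries and 21 and 23 in cycling cells, and the ranges of cells overlap.

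Other measures differed in cycling cells as well. Ribosomal protein genes made up 27.5% and 23.7% of their UMIs in CTRL and DHEA, against 33.8% and 34.3% in naive-phenotype cells. With mitochondrial and ribosomal protein UMIs left out of the total, cycling over naive-phenotype was 0.63 and 0.65. Median depth was 14811 UMIs in CTRL and 6576 in DHEA cycling cells, and among cells of at least 6000 UMIs the ratio was 0.76 and 0.86. DHEA cycling cells also carried granzyme-list genes at 2216 CPM, against 2.51 CPM in CTRL, and naive-list genes at 534 against 1927 CPM, so the cycling cells of the libraries were not alike. Markers of other cell types summed to 42.6 CPM in CTRL and 558 CPM in DHEA cycling cells, of which Car1, an erythroid gene, gave 237 UMIs from 2 cells. Without cells holding at least 2 such UMIs the ratio was 0.66 in 21 CTRL cells and 0.83 in 42 DHEA cells.

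Of the members with at least 20 UMIs in both states, 53 of 75 in CTRL and 62 of 77 in DHEA were at least 1.5-fold higher in cycling cells. That is 70.7% and 80.5%, beside 33.6% and 37.6% of all genes counted in the same way, and the member medians were 0.80 and 0.93 beside 0.23 and 0.31. The minimum of 20 UMIs keeps low-level genes more readily if they are high in the few cycling cells. The values of all genes are therefore not a like comparison. Among 75 members counted in both libraries, 70 were higher in both, 50 by at least 1.5-fold in both, and 3 were lower in both. The shares of all genes that did so in both libraries were not counted. Across those 75 genes the ratios in the libraries had a Pearson correlation of 0.87, given as a description because genes of 1 cell population are not independent.

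**Figure D5:**
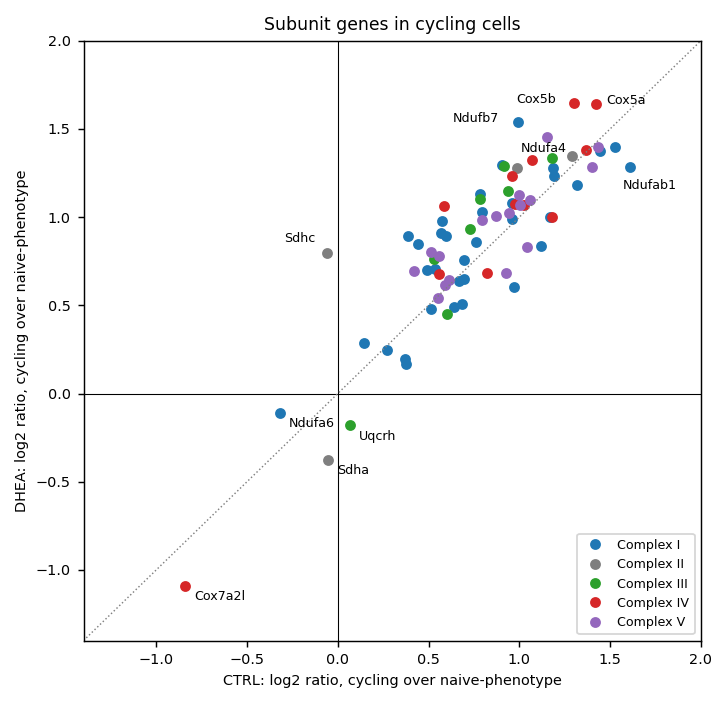
Log2 ratio of cycling over naive-phenotype cells for 75 subunit genes, CTRL on the horizontal and DHEA on the vertical axis, coloured by complex; the dotted line marks equal values. Of the 75 genes, 70 lie above 0 in both libraries, and Cox7a2l is the lowest in both.

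In complex I, Ndufab1, the mitochondrial acyl carrier protein, had the highest ratio in CTRL: 72.4 CPM in naive-phenotype and 221 CPM in cycling CTRL cells, 78.9 and 192 CPM in DHEA (1.61 and 1.28). In DHEA the highest was Ndufb7 at 1.54, with 0.99 in CTRL. Ndufc2 had ratios of 1.53 and 1.40. Among members with at least 20 UMIs in both states, Ndufa6 was the lowest of its complex, at -0.32 and -0.11 with intervals including 0. Its levels were 209 and 168 CPM in CTRL and 207 and 192 CPM in DHEA. Complex II was uneven in the same cells. Sdhb (0.99 and 1.28) and Sdhd (1.29 and 1.35) were higher, whereas Sdha stood at 83.3 and 80.2 CPM in CTRL and at 80.4 and 62.0 CPM in DHEA (-0.05 and -0.37, both intervals including 0). Sdhc gave -0.06 in CTRL on 22 UMIs and 0.80 in DHEA on 52.

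Complex III was held down by its most abundant gene. Uqcrh had 517 CPM in naive-phenotype and 541 CPM in cycling CTRL cells, and 523.5 and 462 CPM in DHEA (0.07 and -0.18), although Uqcr10 had 1.18 and 1.34 and Uqcrq 0.94 and 1.15. Without Uqcrh, complex III stood at 0.83 and 1.03, above complex I in both libraries; this sum was chosen after its values were seen. In complex IV, Cox5a went from 216 to 579 CPM in CTRL and from 254 to 792 CPM in DHEA (1.42 and 1.64), and Ndufa4 from 273 to 704 and from 324 to 842 CPM (1.37 and 1.38). Cox5b had 1.30 and 1.65. These 3 genes were those at least 1.2-fold higher in DHEA, beside the pseudogene. They also had the highest cycling ratios of the complex among members with at least 20 UMIs in both states. In complex V the highest in CTRL were Atp5j, coupling factor 6 of the peripheral stalk (1.43, and 1.40 in DHEA), and Atp5k (1.40, and 1.29 in DHEA). The highest in DHEA was Atp5g3, and Atp5b was lowest in CTRL at 0.42 (0.70 in DHEA). The c-ring genes shown above gave 0.93, 1.04 and 1.15 for Atp5g1, Atp5g2 and Atp5g3 in CTRL and 0.69, 0.83 and 1.46 in DHEA, so Atp5g3 had the highest ratio of the set in both.

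Cox7a2l went the other way. It had 610 CPM in naive-phenotype CTRL cells (16438 UMIs) and 341 CPM in cycling ones (136 UMIs, 286 to 403 CPM), and in DHEA 596 CPM (11870 UMIs) and 280 CPM (140 UMIs, 236 to 330 CPM), which are log2 ratios of -0.84 (-1.09 to -0.60) and -1.09 (-1.34 to -0.85). It was the only member at least 1.5-fold lower, 1 of 75 and 1 of 77 beside 12.3% and 15.5% of all genes. The level in memory-phenotype cells lay between, at 477 CPM in CTRL and 500 CPM in DHEA (-0.36 and -0.25), and in DHEA granzyme cells it was 467 CPM (-0.35). Over 5 other ways of counting, its cycling ratio ran from -0.98 to -0.59 in CTRL and from -1.31 to -0.74 in DHEA. In naive-phenotype cells it had no steady order with depth, with 438 to 643 CPM over the bins in CTRL and 535 to 616 CPM in DHEA. Without Cox7a2l, complex IV stood at 1.03 and 1.16 in cycling cells.

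Memory-phenotype cells differed little from naive-phenotype cells in the total. The ratio was 0.003 in CTRL (-0.006 to 0.013) and 0.07 in DHEA (0.066 to 0.082), and 0 of 79 members were at least 1.5-fold higher in either, beside 6.23% and 5.16% of all genes, and 0 were lower by that size, beside 2.85% and 3.63%. The totals moved with the cells taken: with gates on whole UMI counts the CTRL ratio was 0.035, and in cells of at least 6000 UMIs it was -0.019 (-0.031 to -0.008) in CTRL and 0.034 in DHEA. Complex III stood at -0.07 in CTRL and 0.05 in DHEA, and complex V at 0.02 and 0.08. Of 79 members, 45 were higher in both libraries and 10 lower in both. The shares of all genes doing so were not counted, so these counts are not set apart from genes in general. Cox8a (0.16 and 0.19), Ndufa12 (0.16 and 0.17) and Cox6b1 (0.14 and 0.14) were among the higher members. Cox7a2l and Ndufs1 (-0.15 and -0.13) were among the lower ones. These were chosen after their values were seen.

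Granzyme cells numbered 132 in DHEA and 6 in CTRL, too few in CTRL to describe gene by gene. Their subunit share was 1.85% in DHEA, a log2 ratio of 0.42 over naive-phenotype cells, and 1.71% in CTRL (1.57 to 1.86). Of the 6 CTRL cells, 1 held 13 UMIs of Klrb1c and 8 of Ncr1, both NK cell genes, and markers of other cell types summed to 642 CPM in these cells against 60.7 CPM in DHEA granzyme cells. Without cells holding at least 2 such UMIs, granzyme over naive-phenotype was 0.32 in CTRL (0.36 with them) and 0.43 in DHEA. Ribosomal protein genes were at 21.0% of UMIs in these DHEA cells, and with mitochondrial and ribosomal protein UMIs left out of the total the ratio was 0.14 (0.11 to 0.17). Of 75 members with at least 20 UMIs in both states, 20 were at least 1.5-fold higher, 26.7% beside 27.7% of the 4030 genes counted so. This minimum keeps a low-level gene more readily if it is high in the few granzyme cells, so the shares are not a like comparison. Atp5h (370 to 767 CPM, 1.05), Cox6b1 (232 to 450 CPM, 0.96) and Ndufb7 (0.95) had the highest ratios, and Ndufs3, a core subunit of complex I (-0.69 on 28 UMIs), the lowest and the only 1 at least 1.5-fold lower, beside 7.42%; these were named after their values were seen. Interferon cells (152 and 122) stood at -0.03 and 0.00, and the early-activated cells, 9 and 16, at 0.12 and 0.16.

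Set side by side by state, the library ratio of the subunit sum was 0.05 in naive-phenotype, 0.08 in interferon, 0.12 in memory-phenotype, 0.09 in early-activated, 0.12 in granzyme (with the CTRL cell that held NK genes) and 0.15 in cycling cells, with intervals that included 0 in early-activated and granzyme cells. Cycling complexes gave 0.16 for I, 0.23 for II, 0.15 for III, 0.18 for IV and 0.10 for V, the complex II interval including 0 (-0.04 to 0.51).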

How the data were processed

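The deposited files hold whole-number UMI counts per gene and barcode; Cell Ranger 8.0.1 is named in the file headers, and the submitters' processing notes also list Seurat 4.3.0 and mm39 with no role. No source used here gives the filters applied before deposit. Members and lists were chosen with earlier results of these data known.

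Counts were summed over cells per library or state and divided by total UMIs (CPM). Intervals are exact Poisson, and for log2 ratios exact from the split of both counts, at 95%; the minimum was 200 UMIs over both libraries, or 20 in each of 2 states. No gene passed through a test, so 1.2-fold (libraries) and 1.5-fold (states) are rules of size. Gates were read in the order cycling, granzyme, interferon, early-activated, memory, naive. Cells under 1000 UMIs (8 and 137) entered no state. Barcodes lacking CD8 or CD3 UMIs (493 and 972) and those of high mitochondrial share (282 and 453) were left out; no doublet caller was run, and leaving out the 5% of cells with the most UMIs was tried instead. Named genes were, per complex, the 2 highest and 2 lowest library ratios, the most abundant gene, and the 2 highest and the lowest cycling ratios in CTRL, plus isoform sets; all other genes given with values were named after their values were seen. Promoter coordinates are GRCm38.p6 and were matched by symbol, since the files' build differs; gene spans come from GENCODE M21. The functions were tested on simulated data. Tools were Python 3.11.15, numpy 2.4.6, scipy 1.17.1, pandas 2.3.3, matplotlib 3.10.9, and for scaling factors R 4.3.3 with edgeR 4.0.16 and DESeq2 1.42.0. Alternatives covered the denominator, scaling, cell filters, depth, gates and the minimum.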

Additional observations from a re-analysis of the deposited data

Results flagged for a closer look

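Cox4i1, the widely expressed isoform of complex IV subunit 4, had library ratios of opposite sign in the main states. In naive-phenotype cells its level was 463 CPM in CTRL and 446 in DHEA, which is -0.0548 on the log2 scale (-0.0942 to -0.0155). In memory-phenotype cells it was higher, with 449 and 494 CPM, or 0.1377 (0.0815 to 0.194). It was the only 1 of 79 measured members whose counting intervals lay on opposite sides of 0 in these states, and 15 had opposite signs. How many of all genes did so was not counted. With 1 library per group, the difference was not tested.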

How the results depend on the processing

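No library or state ratio past its rule of size changed sign under any alternative run. The library, memory-phenotype and granzyme sums lay below that rule, so this does not cover them. Of single members, 20 of 78 changed sign with span medians subtracted and 3 of 79 at 2000 to 6000 UMIs. The CTRL memory-phenotype ratio (0.003317) was -0.001463 without mitochondrial and ribosomal UMIs and -0.001903 at 2000 to 6000 UMIs. The subunit sum between libraries (0.09198) was 0.09737 with TMM scaling, 0.08624 with no CD8 and CD3 requirement and 0.1032 in cells of 2000 to 6000 UMIs. The member median (0.08928) was 0.09467 with TMM, 0.09432 at a 5% mitochondrial limit, 0.1176 at 2000 to 6000 UMIs, 0.09478 without the 5% of cells with the most UMIs, 0.09636 with each cell weighted alike and 0.05092 with span medians subtracted. Members at least 1.2-fold higher (5) were 8 with no minimum and 1 with span medians subtracted. At 1.1-fold, 34 were higher and 1 lower. The shares of all genes were not counted under these settings, so these counts have no background beside them. Reading gates on whole UMI counts gave 0.0387 for the naive-phenotype library ratio, 0.5807 and 0.6869 for cycling over naive-phenotype in CTRL and DHEA, 0.03514 and 0.08447 for memory-phenotype and 0.3421 for DHEA granzyme cells. Without mitochondrial and ribosomal UMIs, cycling gave 0.6339 and 0.6532 and granzyme 0.1424. At 2000 to 6000 UMIs, DHEA gave 0.6852 for cycling, 0.08875 for memory-phenotype and 0.3869 for granzyme cells; CTRL had too few cycling cells there for a value. Equal weight per cell gave 0.6163 and 0.7777 for cycling and 0.08581 for DHEA memory-phenotype cells. Thresholds 1 UMI higher gave 0.02243 (CTRL) and 0.09186 (DHEA) for memory-phenotype and 0.9165 for DHEA cycling cells. Of the alternatives chosen after seeing the data, leaving out cells with markers of other types gave 0.6556 and 0.8303 for cycling; cells of at least 6000 UMIs gave -0.01929 (CTRL, where 0.003317 was reported, so the sign is not settled) and 0.03401 for memory-phenotype and 0.4934 for granzyme cells; and leaving out cells at a threshold or 1 UMI above gave 0.7355 and 0.924 for cycling, 0.01566 for CTRL memory-phenotype and 0.3902 for granzyme cells. Complex III was lowest in cycling cells in 10 of 12 combinations of library and setting and complex IV highest in 10 of 12. Causes were not tested. No paired analysis was possible because each group has 1 library and the labels carry no replicate number. With 25 and 48 cycling cells, single genes of low level rest on few UMIs.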
